A study of Mus musculus with 9 samples.

Results

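The nuclear genes for subunits of respiratory complexes I to IV were followed across 3 groups of mouse fetal prostate mesenchyme cells. Members were the genes whose symbols belong to the Nduf A, B, C, S and V series, Sdha to Sdhd, the Uqcr genes and Cox4 to Cox8, read at the probeset with the highest mean over 9 arrays. Of 19938 genes with a probeset of their own, 64 were members, 35 of complex I, 4 of complex II, 8 of complex III and 17 of complex IV. The complex was taken from the symbol, which places Ndufa4 and Ndufa4l2 in complex I. A few other genes with such names were not analysed here.

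The cells were first-passage primary cultures of urogenital sinus (UGS) mesenchyme from male CD-1 mouse fetuses at gestation day 17, the tissue that gives rise to the prostate. Every culture was kept in hormone-stripped serum with 690 pM dihydrotestosterone (DHT), an androgen, for 3 days, and DHT was also present during the 4 days of exposure that followed. The groups were ethanol vehicle, 10 pM 17β-estradiol (E2) and 100 pM E2, with 3 Affymetrix Mouse Gene 1.0 ST arrays each, so that vehicle stands for DHT without added E2 and not for hormone-free cells. Nothing in the labels ties the replicates to separate cultures, litters or days, and p-values measure the spread between these arrays, which may be technical.

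The respiratory chain of the inner mitochondrial membrane passes electrons from NADH through complex I and from succinate through complex II to ubiquinone, then through complex III and cytochrome c to complex IV, which reduces oxygen to water. Complexes I, III and IV pump protons while electrons pass, and ATP synthase uses the resulting gradient. Most subunits are encoded in the nucleus, and a few catalytic ones by mitochondrial DNA. Several complex IV subunits come as pairs of isoforms with different tissue or oxygen dependence, and Ndufa4l2 is a relative of Ndufa4 known as a target of hypoxia-inducible factor.

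The log2 signal had a median of 6.175 to 6.202 over all probesets of each array. All 11 mesenchymal markers were measured, at a mean log2 signal of 11.1 to 11.3 per array, against 5.82 to 5.98 for 14 epithelial and 5.55 to 5.88 for 12 macrophage markers. The 8 smooth muscle markers were also bright, at 10.6 to 10.7, with 3 higher and 5 lower in 100 pM E2 than in vehicle and 0 called. Between 100 pM E2 and vehicle, 12 of 12 macrophage markers had lower values, 1 of them past the test (C1qb), and 8 of 11 mesenchymal ones, with Pdgfra, Dcn, Lum and Col3a1 past the test. Of the epithelial markers 10 of 14 had higher values in 100 pM E2 than in vehicle, with 0 called, and 10 of 14 than in 10 pM E2, with Krt18 called (0.57, adjusted p = 0.0428 in limma). The epithelial list mean was 5.82 to 5.91 in vehicle, 5.83 to 5.86 in 10 pM E2 and 5.84 to 5.98 in 100 pM E2. Among 10 endothelial markers 5 had higher and 5 lower values in 100 pM E2 than in vehicle, with Kdr lower and Emcn higher past the test, with a list mean of 6.02 to 6.10 in vehicle and 5.99 to 6.01 in 100 pM E2. Of 9 pericyte markers 3 had higher and 6 lower values, with Rgs5 higher and none lower past the test, with a list mean of 8.04 to 8.05 in vehicle and 8.01 to 8.10 in 100 pM E2. In cultures measured as a whole, a change in the share of a cell type and a change of RNA per cell cannot be told apart, and the part of these cells in the results that follow was not tested.

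Like most genes of the array, subunit genes of all 4 complexes stayed close to their vehicle levels at both doses. Ndufa4l2 at 100 pM E2 was the exception among them. Between 100 pM E2 and vehicle, 63 of 64 members (98.4%) differed by under 0.2 on the log2 scale, and at 10 pM E2 this held for 64 of 64. The same bound held for 18901 of 19938 genes (94.8%) at 100 pM and for 19578 (98.2%) at 10 pM. The middle member was 0.022 higher at 100 pM E2 and 0.025 higher at 10 pM E2 on the log2 scale, against 0.0049 and 0.0046 for the middle gene of the array. Leaving out single arrays moved the former from 0.0065 (without 100 pM replicate 3) to 0.036 (without vehicle replicate 3), with 0.0088 and 0.0078 without vehicle replicates 1 and 2, and the latter from 0.010 (without vehicle replicate 1) to 0.037 (without vehicle replicate 3), with 0.015 without vehicle replicate 2. Members were higher than vehicle in 40 of 64 cases at 100 pM and in 44 of 64 at 10 pM, that is in 62.5% and 68.8% of members, where 53.0% and 53.5% of all genes were.

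No member passed limma's moderated test, at a Benjamini-Hochberg adjusted p below 0.05 over all genes, between 100 pM E2 and vehicle, where 1.13% of all genes did. At an unadjusted p below 0.05 there were 10 members, or 15.6%, against 10.9% of all genes, and an unmoderated one-way analysis of variance also called 0 members, while limma with a trended and robust variance called Ndufa4 and Ndufa4l2. Between 10 pM E2 and vehicle, 0 members were called by any of these tools, beside 0.00% of all genes under limma, and 2 members, Ndufs6 and Ndufb10, had an unadjusted p below 0.05, or 3.12%, against 3.54% of all genes. Between 100 pM and 10 pM E2, 1 member was called, Ndufa4l2, where the background was 0.833%. At an unadjusted p below 0.05 there were 5 members in that comparison, or 7.81%, against 10.2% of all genes. By complex, the 10 members at 100 pM E2 against vehicle were 5 of 35 in complex I (14.3%), 0 of 4 in complex II, 0 of 8 in complex III and 5 of 17 in complex IV (29.4%; Cox4i2, Cox5a, Cox6b1, Cox7a1 and Cox7a2). Those of complex I were Ndufa4, Ndufa4l2, Ndufs6, Ndufv3 and Ndufb10. Complexes were assigned by symbol, although Ndufa4 is now assigned to complex IV. Apart from Ndufa4 and Ndufa4l2, complex I had 3 of 27 accessory subunits (11.1%) and 0 of 6 core genes. The differences between these shares and the background were not tested.

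The fit gives a 95% interval for each member, which rests on the spread between these arrays. Without Ndufa4l2, the 95% intervals of the differences reached from -0.38 to 0.34 on the log2 scale at 100 pM E2 and from -0.32 to 0.35 at 10 pM E2. With Ndufa4l2, they reached down to -1.15 at 100 pM E2 and up to 0.50 at 10 pM E2. Each interval holds for 1 member at a time, so these extremes do not bound all members together. The median over members of the distance from a difference to the end of its interval was 0.11.

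**Figure D1:**
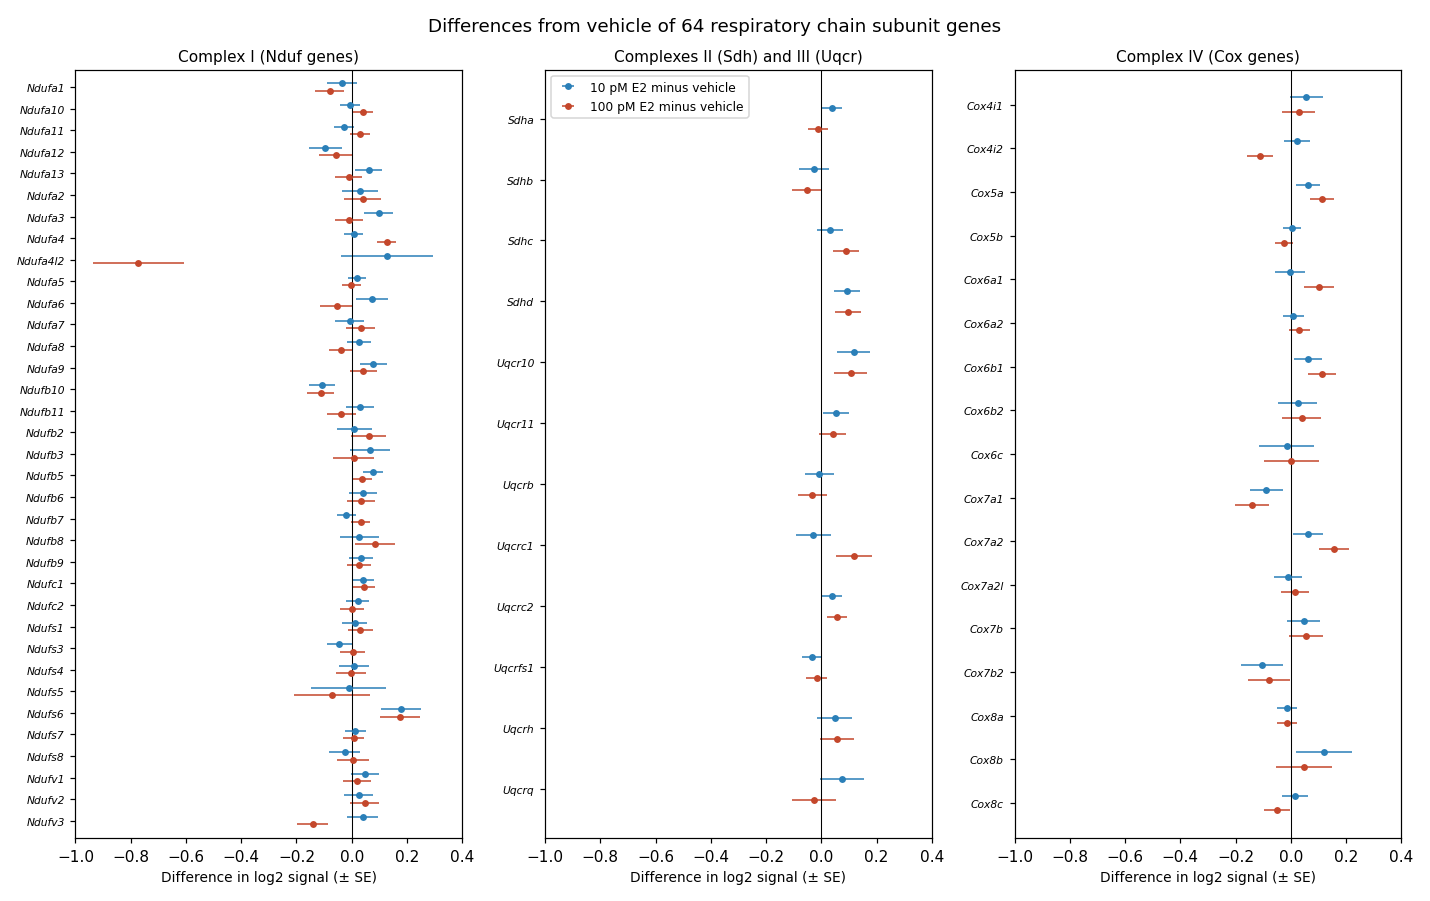
Difference in log2 signal from vehicle (x axis, points with SE bars from limma, 3 arrays in each group) for each of 64 subunit genes at 10 pM E2 (blue) and 100 pM E2 (red), in panels for complex I, complexes II and III, and complex IV. All points lie within 0.2 of vehicle except Ndufa4l2 at 100 pM E2, at -0.77.

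Ndufa4l2 (probeset 10366951) encodes a mitochondrial protein related to Ndufa4 that is known to be induced by low oxygen and to restrain respiration. It gave log2 signals of 8.00, 7.95 and 8.38 in vehicle, 8.01, 8.41 and 8.30 in 10 pM E2, and 7.62, 7.06 and 7.33 in 100 pM E2. All 3 arrays of 100 pM E2 lay below all 6 others, while vehicle and 10 pM E2 overlapped. The level in 100 pM E2 was 0.90 ± 0.17 (SE, n = 3 and 3) lower than in 10 pM E2 on the log2 scale, a 1.87-fold difference, with an adjusted p of 0.0499 in limma. Against vehicle it was 1.71-fold lower, a log2 difference of -0.77 ± 0.17 (adjusted p = 0.0742), and the difference between 10 pM E2 and vehicle was 0.13 (adjusted p = 1). The log2 difference of 100 pM from 10 pM E2 ran from -1.04 to -0.76 over 20 alternative settings. The adjusted p ran from 0.0221 to 0.246 and stayed below 0.05 in 8 of them. These include averaged probesets and probesets chosen by chromosome (adjusted p = 0.0480 and 0.0499 in limma). Neither could change its values, since Ndufa4l2 has 1 probeset. Leaving out any single array other than 100 pM replicate 1 raised the adjusted p to 0.0569 or more. The second array of 100 pM E2 was the lowest, and without it the difference was -0.76 from 10 pM E2 (adjusted p = 0.149) and -0.63 from vehicle (adjusted p = 0.227).

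Ndufa4 (probeset 10543134), first described as a complex I subunit and now assigned to complex IV, had its highest values at 100 pM E2. Its log2 signals were 10.80, 10.79 and 10.86 in vehicle, 10.83, 10.82 and 10.83 in 10 pM E2, and 10.91, 10.95 and 10.97 in 100 pM E2. Here too the 3 arrays of 100 pM E2 stood apart, above all others. The difference from vehicle was 0.13 ± 0.03 (SE) on the log2 scale, or 1.09-fold, with an adjusted p of 0.173, which passed only with a trended and robust variance (adjusted p = 0.0472). The arrays of 100 pM E2 and vehicle did not overlap for 6 members (Ndufa4l2 lower and Ndufa4, Cox7a2, Cox6b1, Ndufs6 and Uqcrc1 higher), where 12.5% of all genes had no overlap. Between 10 pM E2 and vehicle 3 members did not overlap (Ndufs6, Uqcrc2 and Ndufa13) against 5.93% of all genes, and between the doses 6 (Ndufa4l2, Ndufa4, Ndufv3, Cox4i2, Ndufa13 and Sdha) against 12.3%.

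**Figure D2:**
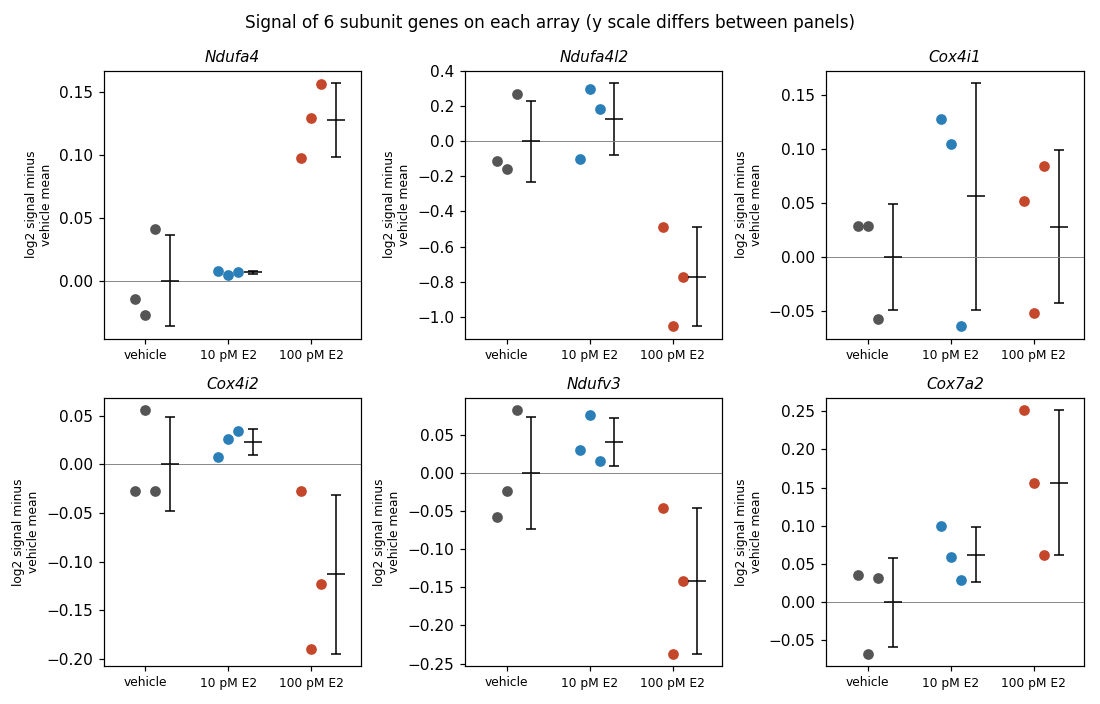
Log2 signal minus the gene's vehicle mean (y axis, scale differing between panels) on each array for Ndufa4, Ndufa4l2, Cox4i1, Cox4i2, Ndufv3 and Cox7a2. Points are arrays of vehicle (grey), 10 pM E2 (blue) and 100 pM E2 (red), with the mean and SD of 3 arrays beside them. For Ndufa4 and Ndufa4l2 the arrays of 100 pM E2 lie apart from all others, in opposite directions.

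Complex IV, cytochrome c oxidase, holds most of the isoform pairs. Cox4i2, the form of subunit 4 known to be induced by hypoxia in lung and some other tissues, had log2 signals of 6.81, 6.89 and 6.81 in vehicle, 6.85, 6.86 and 6.87 in 10 pM E2, and 6.81, 6.65 and 6.72 in 100 pM E2. Its 100 pM arrays lay below those of 10 pM E2 and overlapped with vehicle. The difference was -0.14 ± 0.05 (SE) from 10 pM E2 (adjusted p = 0.349) and -0.11 from vehicle (adjusted p = 0.432), and without the second array of 100 pM E2 the former was -0.10 (adjusted p = 0.678). Cox4i1, the form found in most tissues, had 9.67, 9.67 and 9.58 in vehicle, 9.77, 9.74 and 9.58 in 10 pM E2, and 9.69, 9.59 and 9.72 in 100 pM E2. Its groups overlapped throughout, with a difference of 0.03 ± 0.06 at 100 pM E2.

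The subunit 7a pair pointed in opposite directions without passing the test. Cox7a2, the form of most tissues, had 8.44, 8.34 and 8.44 in vehicle, 8.51, 8.47 and 8.44 in 10 pM E2, and 8.66, 8.56 and 8.47 in 100 pM E2. The log2 difference from vehicle was 0.16 ± 0.05 (SE) at 100 pM (adjusted p = 0.313) and 0.06 at 10 pM. Cox7a1, the heart and muscle form, had 5.83, 5.76 and 5.91 in vehicle, 5.76, 5.68 and 5.79 in 10 pM E2, and 5.80, 5.67 and 5.61 in 100 pM E2, with overlapping arrays and a difference of -0.14 ± 0.06 (adjusted p = 0.443). Whether the Cox7a1 probeset measured transcript above background in these cells is unknown, since no detection calls were among the values used, and the 12 striated muscle markers had a mean of 6.06 to 6.14 in vehicle and 6.06 to 6.12 in 100 pM E2.

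The other pairs differed from vehicle by at most 0.11 at 100 pM E2 and by at most 0.12 at 10 pM E2 (Cox8b, with overlapping arrays). At 100 pM E2 the log2 difference from vehicle was 0.10 for Cox6a1 and 0.03 for its heart and muscle form Cox6a2. It was 0.11 for Cox6b1 and 0.04 for the testis form Cox6b2. The Cox8a, Cox8b and Cox8c differences were -0.01, 0.05 and -0.05, and those of Cox7b and Cox7b2 were 0.05 and -0.08. Cox7b2 was the 1 member among the dimmest 30% of genes, and its signal read 3.81 on 6 of 9 arrays. Exactly equal values of this kind, shared by 3 or more arrays, occurred for 20 of 64 members and 49.3% of all genes, and Cox8c (7 arrays), Cox6a2 and Ndufb10 (6 arrays each) were the other members with 6 or more. Cox5a, an obligatory subunit with no isoform, had a difference of 0.11 ± 0.04 (adjusted p = 0.397), with 9.44, 9.53 and 9.47 in vehicle against 9.53, 9.66 and 9.60 in 100 pM E2.

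In complex I, NADH dehydrogenase, the catalytic core carries the flavin and iron-sulfur clusters that take electrons from NADH to ubiquinone. All 6 measured core genes, Ndufs1, Ndufs3, Ndufs7, Ndufs8, Ndufv1 and Ndufv2, differed from vehicle by 0.00 to 0.05 on the log2 scale at 100 pM E2 and by -0.05 to 0.05 at 10 pM E2. None was called, none had an unadjusted p below 0.05, and the arrays of the groups overlapped for each of them. Ndufv1, which binds NADH and the flavin, read 8.88, 8.98 and 8.98 in vehicle, 8.99, 8.94 and 9.05 in 10 pM E2, and 8.89, 9.01 and 9.00 in 100 pM E2.

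The 27 accessory subunits of complex I, which surround the core and are needed for its assembly and stability, had a median log2 difference of 0.0066 at 100 pM E2 and 0.027 at 10 pM E2. The extremes at 100 pM E2 were Ndufs6 and Ndufv3. Ndufs6, a zinc-binding subunit added late in assembly, read 8.21, 8.21 and 8.06 in vehicle, 8.50, 8.28 and 8.23 in 10 pM E2, and 8.29, 8.35 and 8.36 in 100 pM E2. All E2 arrays were above all vehicle arrays, and the difference was 0.18 ± 0.07 (SE) at either dose, with adjusted p of 0.426 at 100 pM and 1 at 10 pM.

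Ndufv3, a small subunit of the NADH-oxidising arm, read 8.15, 8.19 and 8.29 in vehicle, 8.24, 8.28 and 8.22 in 10 pM E2, and 8.16, 7.97 and 8.07 in 100 pM E2. The arrays of 100 pM lay below those of 10 pM E2, a difference of -0.18 ± 0.06 (adjusted p = 0.283), and the second array of 100 pM E2 was again the lowest. Without that array the difference was -0.13 (adjusted p = 0.608). Ndufb10 differed from vehicle by -0.11 at both doses (adjusted p = 0.436 at 100 pM and 1 at 10 pM), with 6.99, 6.80 and 6.94 in vehicle and 6.79 to 6.80 on the E2 arrays.

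Complex II, succinate dehydrogenase, is also an enzyme of the tricarboxylic acid (TCA) cycle. Its flavoprotein gene Sdha differed from vehicle by -0.01 and the iron-sulfur subunit gene Sdhb by -0.05 at 100 pM E2, while the membrane anchors Sdhc and Sdhd differed by 0.09 and 0.10. None of the 4 was called or had an unadjusted p below 0.05 in any pairwise comparison. Sdhd, the anchor with the larger difference, read 9.00, 9.00 and 9.12 in vehicle, 9.12, 9.08 and 9.20 in 10 pM E2, and 9.12, 9.12 and 9.17 in 100 pM E2, so that the E2 groups overlapped with vehicle or met its highest array.

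In complex III, the cytochrome bc1 complex, the core protein gene Uqcrc1 stood highest at 100 pM E2. It read 9.33, 9.33 and 9.35 in vehicle, 9.18, 9.40 and 9.34 in 10 pM E2, and 9.54, 9.45 and 9.37 in 100 pM E2. The arrays of 100 pM E2 were above those of vehicle and overlapped with those of 10 pM E2. The difference from vehicle was 0.12 ± 0.06 (SE, adjusted p = 0.56). Uqcrc2, the other core protein, differed by 0.06, and Uqcrfs1, the Rieske iron-sulfur protein, by -0.02. Over the 8 genes of complex III the median difference was 0.049 at 100 pM E2 and 0.043 at 10 pM E2.

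Taken per array, the medians of the groups overlapped for every complex. The median over 64 members of the log2 deviation from the vehicle mean ran from -0.012 to 0.027 on vehicle arrays, from 0.0080 to 0.031 on 10 pM arrays and from 0.018 to 0.022 on 100 pM arrays. Complex III had the highest single array, 0.092 on the third array of 100 pM E2, beside 0.027 and 0.032 on the other arrays of that group. The sign of the median between 100 pM and 10 pM E2 followed the scaling, at -0.0033 as deposited, 0.0016 with arrays centred on their medians and 0.0064 after quantile normalization.

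**Figure D3:**
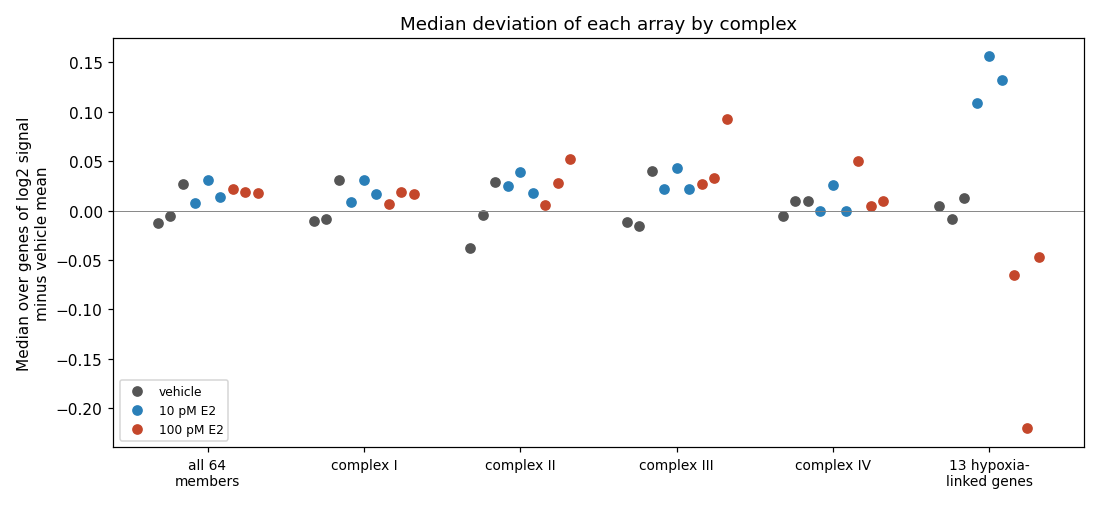
Median over genes of the log2 signal minus each gene's vehicle mean (y axis) for each of 9 arrays, for all 64 members, for each complex and for 13 hypoxia-linked genes of respiration. Points are arrays of vehicle (grey), 10 pM E2 (blue) and 100 pM E2 (red). The members' groups overlap, while the hypoxia-linked genes lie between 0.11 and 0.16 at 10 pM E2 and between -0.22 and -0.047 at 100 pM E2.

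An inverted U, highest at 10 pM E2, was among the dose patterns the study described, with glycolysis genes enriched among those of this shape. Of 64 members, 27 (42.2%) had their highest group mean at 10 pM, against 32.1% of all genes. None passed the test of 10 pM E2 against the mean of the other groups, where 0.00502% of all genes were called. Ndufa4l2, Ndufv3 and Ndufa3 had an unadjusted p below 0.05 in it, against 5.61% of all genes, and the one-way analysis of variance called none. The difference in this test was 0.51 ± 0.14 (SE) for Ndufa4l2 (adjusted p = 0.615) and 0.11 ± 0.05 for Ndufv3 (adjusted p = 0.886). A fall at 100 pM E2 alone also moves this contrast, so it cannot by itself show a peak at 10 pM E2. Between 10 pM E2 and vehicle, Ndufa4l2 differed by 0.13 ± 0.17 and Ndufv3 by 0.04 ± 0.06, with overlapping arrays. In the F test over the 3 groups, likewise, no member was called beside 0.843% of all genes, and 4 members had an unadjusted p below 0.05 against 9.15%. Ndufa4l2 had the smallest adjusted p there, 0.0701.

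Genes linked to hypoxia and respiration were followed beside the subunits. The list used was chosen with earlier results of these data known. The study had also reported an inverted U of glycolysis genes at these doses, so the counts below are a description. A list of 13 genes linked to hypoxia and respiration was lower in 100 pM than in 10 pM E2 for all 13, with a median log2 difference of -0.26 against 0.00061 for all genes, and 3 of them passed the test, where 0.833% of all genes did. These were Egln3, a prolyl hydroxylase that marks hypoxia-inducible factor for degradation and is itself induced by it (-0.83, adjusted p = 0.0097), Pdk1, a kinase that keeps pyruvate out of the TCA cycle (-0.56, adjusted p = 0.0235), and Higd1a, a small inner-membrane protein that binds complex IV (-0.52, adjusted p = 0.0298). Against vehicle, 12 of 13 were lower at 100 pM E2 with a median of -0.11, and 12 of 13 were higher at 10 pM E2 with a median of 0.11, with 0 called in either comparison. At an unadjusted p below 0.05 there were 5 of 13 at 100 pM, against 10.9% of all genes, and 3 of 13 at 10 pM, against 3.54%. Without 100 pM replicate 2 the median at 100 pM was -0.064, with 11 of 13 lower and Pdk1 called, and without 100 pM replicate 3 it was -0.14, with 12 of 13 lower and Egln1 and Egln3 called.

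By array, the called genes had the following log2 signals. Egln3 read 7.62, 7.55 and 7.70 in vehicle, 8.01, 8.00 and 7.92 in 10 pM E2, and 7.16, 6.92 and 7.37 in 100 pM E2, with no overlap between any groups. Pdk1 read 8.67, 8.67 and 8.69, then 8.79, 8.83 and 8.83, then 8.38, 8.01 and 8.36 in the same order. The second array of 100 pM E2 was the lowest for Egln3, Pdk1, Higd1a and Ndufa4l2 alike. Without it the list median against 10 pM E2 was -0.21, with 12 of 13 lower and 4 called (Bnip3 in addition), while Ndufa4l2 was no longer called. Without 100 pM replicate 3, 5 were called (Egln1 and Bnip3 in addition), without replicate 1 of that group 2 (Egln3 and Pdk1), without 10 pM replicate 3 or any 1 vehicle array 1 (Egln3), and without 10 pM replicate 1 or 2 none, although the list median stayed between -0.29 and -0.21. Higd1a has another probeset, with differences of -0.47 between the doses, -0.45 from vehicle at 100 pM and 0.01 at 10 pM, where the brighter probeset gave -0.52, -0.17 and 0.36. How these genes relate to Ndufa4l2 was not tested.

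Other genes of mitochondrial respiration were read on the same arrays. Of 18 genes for electron carriers and enzymes that feed the chain, Gpd2, the mitochondrial glycerol phosphate dehydrogenase that hands electrons to ubiquinone, was the 1 called. It read 8.38, 8.54 and 8.59 in vehicle, 8.54, 8.64 and 8.51 in 10 pM E2, and 8.84, 8.95 and 8.89 in 100 pM E2. All arrays of 100 pM were above all others, with a difference from vehicle of 0.39 ± 0.06 (SE, adjusted p = 0.0215), and the list median was 0.032. By array, the list's median deviation from the vehicle mean was -0.026 to 0.010 in vehicle, 0.0075 to 0.039 in 10 pM E2 and 0.022 to 0.041 in 100 pM E2, so that the arrays of 100 pM lay above those of vehicle.

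None of 18 ATP synthase genes was called at 100 pM E2 against vehicle, with a median of 0.020 and 14 higher, and Atp5b, a catalytic subunit, stood at 0.12 (adjusted p = 0.194). The per-array medians of these genes, at -0.0082 to 0.0057 in vehicle, 0.011 to 0.019 in 10 pM E2 and 0.015 to 0.042 in 100 pM E2, did not overlap between vehicle and either dose. Among 13 TCA cycle genes 0 were called, and Dlst and Ogdh, subunits of the 2-oxoglutarate dehydrogenase complex, differed by 0.14 and 0.13 (adjusted p = 0.276 and 0.194). The same comparison gave 0 of 39 assembly factors (median 0.012; Cox18 at 0.13 and Cox11 at 0.11), 0 of 77 mitochondrial ribosomal proteins (median 0.019; Mrpl57 at 0.19 and Mrpl23 at -0.10) and 0 of 20 regulators of mitochondrial biogenesis (median 0.0072). Among those regulators, Tfam, which packages and transcribes mitochondrial DNA, differed by -0.20 (adjusted p = 0.459) and Tfb1m by -0.15 (adjusted p = 0.335). The counts at an unadjusted p below 0.05 were 2 of 18, 2 of 13, 1 of 39, 2 of 77 and 2 of 20 in that order, against the 10.9% of all genes. Unlike those of ATP synthase, the per-array medians of vehicle and 100 pM E2 overlapped for the TCA cycle, assembly factor, mitochondrial ribosome and regulator lists. Over all genes the same medians ran from -0.0012 to 0.0081 across the arrays. Whether the small separations exceed differences in scaling between arrays was not tested. Of the subunits encoded by mitochondrial DNA, ND3 and COX2 had a probeset of their own and differed from vehicle by 0.06 and -0.04 at 100 pM E2.

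Some members could be read at more than 1 probeset, which shows how far a value depends on the choice. The 10 such members had differences of at most 0.14 on the log2 scale at any probeset in any comparison. For Cox7a2l and Uqcrb the sign at 100 pM E2 depended on the probeset. Cox7a2l, which encodes a factor that joins complexes III and IV into supercomplexes, differed from vehicle by 0.02 at the brighter probeset and by -0.04 at the other. Uqcrb, a subunit near the ubiquinone site of complex III, differed by -0.03 at the probeset used and by -0.04 and 0.01 at the others. For 4 members (Cox6c, Cox7a2l, Cox7b and Ndufb11) the brighter probeset is numbered among probesets for genes of another chromosome. For Cox6c the probeset numbered within its own chromosome gave 0.10 at 100 pM E2, where the brighter gave 0.00. Reading members at probesets numbered within their own chromosome, a choice made after seeing the data, left 0 members called against vehicle and 1 between the doses. The 1 was Ndufa4l2, whose single probeset this choice could not change.

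**Figure D4:**
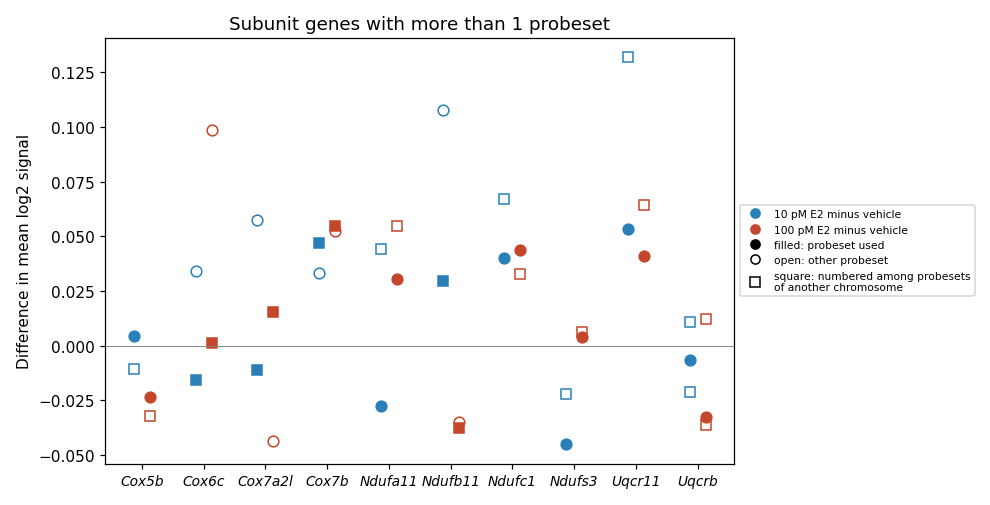
Difference in mean log2 signal from vehicle (y axis) at each probeset of the 10 subunit genes with more than 1, for 10 pM E2 (blue) and 100 pM E2 (red). Filled symbols are the probesets used, open symbols the others, and squares those numbered among probesets of another chromosome. For Cox7a2l and Uqcrb the red symbols lie on both sides of 0.

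Sequence near the starts of the members, a feature that did not enter their choice, was searched for the letters of factors known to act on such genes and on the response to hypoxia or estrogen. RefSeq promoter windows (GRCm38.p6, 250 bases before to 50 after the start) were found for 51 of 64 members, 53 windows in all, while 13 members, Ndufa4l2 and Cox4i2 among them, had none in the windows used here. Exact letters were searched on both strands. The palindrome made of GCGCA and, directly after it, its reverse complement, bound by NRF1, a regulator of nuclear genes for mitochondrial proteins, occurred in 3 of 53 member windows (5.66%) and in 0.971% of all 32851 windows. The ETS letters CCGGAAG, bound by GABPA, occurred in 11 (20.8%) against 8.86%, and the YY1 letters AAGATGGCG in 5 (9.43%) against 1.40%. The letters AAGGTCA, the site of estrogen-related receptors, occurred in 3 (5.66%) against 4.72%. The short core ACGTG or GCGTG, read by hypoxia-inducible factor among others, occurred in 32 (60.4%) against 43.8%. The estrogen response element, the palindrome of GGTCA and its reverse complement with any 3 bases between, shares the letters GGTCA with that site and was found in 0 member windows and 0.0700% of all windows. A match is a description of letters and no evidence that a factor binds there.

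Upstream sequences are shown for the members whose NRF1 letters lie within the 250 bases before the start, written 5′ to 3′ on the strand of the gene. The matched letters are in capitals. Cox6a1 lies on the minus strand (chr5:115348959-115349208), with the NRF1 letters 162 to 153 bases before the start and, as CTTCCGG, the ETS letters 16 to 10 bases before it. Ndufa11 lies on the plus strand (chr17:56717512-56717761), with the NRF1 letters 60 to 51 bases before the start.
Cox6a1: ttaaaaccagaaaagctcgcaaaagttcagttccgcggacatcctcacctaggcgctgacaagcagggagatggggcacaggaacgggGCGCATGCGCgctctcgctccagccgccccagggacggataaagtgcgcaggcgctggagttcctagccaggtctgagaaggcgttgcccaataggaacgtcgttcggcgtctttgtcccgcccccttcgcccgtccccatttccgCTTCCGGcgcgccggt
Ndufa11: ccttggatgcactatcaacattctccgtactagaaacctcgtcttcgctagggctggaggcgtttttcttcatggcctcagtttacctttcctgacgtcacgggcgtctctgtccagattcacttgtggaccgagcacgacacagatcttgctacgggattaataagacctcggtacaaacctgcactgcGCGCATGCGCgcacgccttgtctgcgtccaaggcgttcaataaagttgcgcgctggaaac
At 100 pM E2 the log2 difference from vehicle was 0.10 ± 0.05 (SE) for Cox6a1 and 0.03 ± 0.04 for Ndufa11, an accessory subunit of the membrane arm of complex I. Neither was called. Cox6a1 read 9.37, 9.40 and 9.47 in vehicle, 9.47, 9.44 and 9.32 in 10 pM E2, and 9.57, 9.44 and 9.54 in 100 pM E2, with overlapping groups.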

How the data were processed

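RNA of 9 samples, 3 in each of 3 groups named by the sample titles, was hybridised to 1-colour arrays. The authors deposited 1 table of log2 signals for 35556 probesets; per the labels the software was GCOS, with its version and the summarisation method not given in the sources used here. That the scale is log2 follows from the range of the values. Genes were not centred, and higher values were taken as brighter signal, unchecked since scanner output was not used here. Genes were named through the platform annotation, which can be old: 21789 probesets had 1 symbol, 1621 several (not used) and 12146 none here, and 21698 matched the reference by Entrez ID. The probeset with the highest mean stood for a gene, with no filter on dim probesets. The members and gene lists were chosen with earlier results of these data known.

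Group means were compared by lmFit and eBayes of limma (version 3.58.1, R version 4.3.3; all 9 arrays, two-sided contrasts and an F test, Benjamini-Hochberg adjustment over 19938 genes, called below 0.05), tested on simulated data. The number of arrays limits the precision. Named were members called, the 10 of smallest F p, the isoform pairs, the cores of complexes I and III, the Sdh genes, members whose probesets disagree in direction, and of each other list those called or else the 2 of smallest F p; Ndufa3, Ndufa11, Ndufa13, Ndufb11, Cox6c, Bnip3 and Egln1 were added after their values were seen. Alternatives were median centring, quantile normalization, a dim filter, all probesets, averaged probesets, trended and robust variance, array weights, a replicate block, the compared groups alone, one-way analysis of variance, a threshold of 0.10 and leaving out each array.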

Additional observations from a re-analysis of the deposited data

How the results depend on the processing

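With genes in the lowest 30% of signal left out, 63 members remained in the fit, and 1 (Ndufa4l2) was called at 100 pM E2 against vehicle and 1 in the F test. A trended and robust variance gave 2 and 1, and a threshold of 0.10 gave 1 and 1. Between 100 pM and 10 pM E2, 0 members were called, in place of 1, with all probesets tested, with the compared groups only, with one-way analysis of variance and with the replicate block. Leaving out each array in turn gave 0 to 1 members called in this comparison and at 100 pM E2 against vehicle, and a median member difference of 0.0065 to 0.036 at 100 pM and of 0.010 to 0.037 at 10 pM. The number of members called at 10 pM E2 was 0 under every alternative. Over all genes, the calls between the doses were 166 and became 291 with the dim filter, 284 with trended and robust variance, 25 with all probesets, 1 with the compared groups only, 1 with analysis of variance and 30 to 178 when single arrays were left out. At 100 pM E2 against vehicle they were 226 and became 343, 349, 98, 10, 30 and 88 to 259 in the same order.

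Directions that reversed belonged to members with differences near 0. Between the doses Cox7a2l was -0.038 with probesets averaged and -0.10 at the probeset numbered within its own chromosome, an alternative chosen after seeing the data. At 10 pM E2 Ndufs7 was -0.0018 after quantile normalization and -0.0022 to 0.025 when single arrays were left out. The same ranges were -0.0063 to 0.051 for Cox7a2l, -0.00030 to 0.077 for Ndufs3 and -0.0076 to 0.054 for Ndufs8 between the doses, and -0.0048 to 0.069 for Ndufs1 and -0.085 to 0.00010 for Uqcrb at 100 pM E2 against vehicle. The cause of these changes was not tested.

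Same-numbered arrays correlated from -0.112 to 0.2 in their deviations from the group means, and others from -0.189 to 0.168. With so few arrays this cannot show whether replicate numbers pair them, and the main fit did not pair them. With the replicate block, 133 genes were called between the doses, and Ndufa4l2 had an adjusted p of 0.0975. Array number and the lack of detection calls limit what could be seen: the median 95% interval spans 0.11 to either side.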
